A study of Homo sapiens with 10 samples.

Results

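Retinoic acid followed by BDNF turns SH-SY5Y neuroblastoma cells into neuron-like cells, and the comparison here is of H4R3me2s in these cells with that in untreated cells of the same line. It rests on 6 of the 10 samples of the series, the 3 BDNF and the 3 Naive libraries, taken by their labels. Naive cells received no treatment. BDNF cells were kept for 6 days in 10 µM retinoic acid with 3% serum and then for 4 days in 50 ng/ml BDNF without serum, 10 days in all. All samples share a growth medium with 10% serum and 300 µg/ml zeocin, and the labels describe a doxycycline-inducible (Tet-on) α-synuclein system, but neither group received doxycycline. The labels give a single line and do not say which samples carry the inducible system, nor whether replicates are separate cultures, so the p-values reflect the spread of these libraries alone, which may be technical. Treatment, time in culture and serum differ together between the groups and cannot be told apart.

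H4R3me2s, in which arginine 3 of histone H4 carries 2 methyl groups placed symmetrically, is laid down mainly by the enzyme PRMT5 and is best known for its link to gene repression. Retinoic acid acts through nuclear receptors that bind DNA and switch on developmental genes such as the HOX clusters. BDNF is a secreted growth factor that signals through the receptor TrkB, encoded by NTRK2, and supports the survival and branching of neurons. SH-SY5Y comes from a tumour of the sympathetic lineage, and retinoic acid with BDNF makes its cells leave the cell cycle and grow long neurites.

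The measured feature is the peak, a stretch where ChIP reads exceeded the local background of the single Input library at the authors' p threshold of 0.01. Fold enrichment, pileup height (stacked fragments), −log10 p and q are the authors' values for each peak. Depth was close in the groups: Naive libraries kept 17925000 ± 192826 reads and BDNF libraries 17659100 ± 536562 (mean ± SD, n = 3 each; exact permutation p = 0.5). With 3 libraries in each group, the exact two-sided permutation test has 20 assignments and cannot give a p below 0.1, so no value below passed a threshold of 0.05. The files hold peaks and no expression values, so neither the identity of the cells nor their differentiation was checked.

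Fewer peaks were called after differentiation on average, but the groups overlapped. Naive libraries 1, 2 and 3 held 12207, 5901 and 7914 peaks, and BDNF libraries 1, 2 and 3 held 6171, 4536 and 6888. The BDNF to Naive ratio of geometric means was 0.697 (exact permutation p = 0.3, adjusted p = 0.375 over 5 library measures). Naive 1 stands above the other 5 libraries, whereas Naive 2 lies below 2 of the 3 BDNF libraries. Covered length followed peak number, at 1707 ± 566 kb in Naive and 1137 ± 271 kb in BDNF libraries (SD, n = 3), a ratio of 0.678 (exact permutation p = 0.3). Without Naive 1 the ratio of peak numbers moved to 0.845.

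Stricter thresholds gave the same order of means. At a −log10 p of 5 or more, Naive libraries held 1790, 487 and 715 peaks and BDNF libraries 562, 515 and 789, so that only Naive 1 stood out (exact permutation p = 0.7). Filtering on a q of up to 0.05 left 58, 27 and 44 peaks in the Naive and 32, 16 and 19 in the BDNF libraries (43.0 ± 15.5 against 22.3 ± 8.5, SD, n = 3; exact permutation p = 0.2, adjusted p = 0.375). Here the second Naive library lay between the BDNF values. A q of 1 was carried by 44.9% of peaks in Naive 1 and by between 90.9% and 94.0% in the other 5 libraries. Median fold enrichment was 3.50 ± 0.0738 in Naive and 3.49 ± 0.0920 in BDNF libraries, a difference smaller than the spread between libraries (exact permutation p = 0.9).

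**Figure D1:**
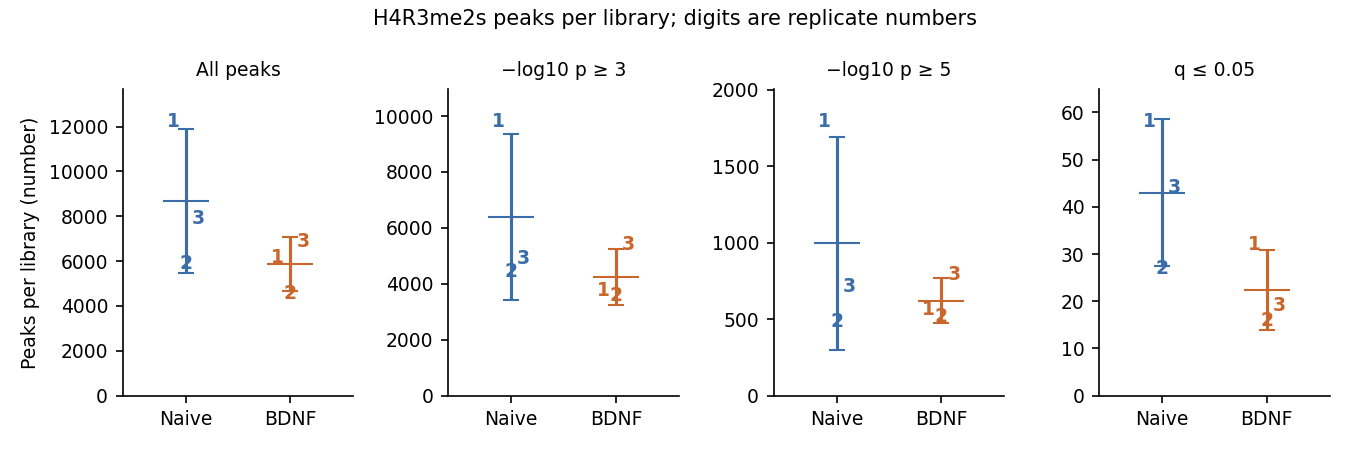
Peaks per library (number, linear axes from 0) in Naive and BDNF cells at 4 thresholds; digits mark the replicate, horizontal lines the group mean and error bars the SD (n = 3). Naive 1, with 12207 peaks, lies above all others, and at each threshold Naive 2 lies below the highest BDNF library.

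The shares of peaks by location are given next, none with a p below the 0.1 that the exact test allows. Gene ends, meaning 2 kb on either side of the start or end of a protein-coding gene, held 2.70% ± 0.271 of Naive and 2.82% ± 0.237 of BDNF peaks (SD, n = 3; exact permutation p = 0.6). With 5 kb in place of 2 kb the shares were 6.45% and 6.96%, and the p was 0.1, the smallest possible in the exact test. Gene bodies with 2 kb on each side held 38.8% ± 1.19 and 40.6% ± 1.75 (exact permutation p = 0.3). The share outside any gene was 46.4% ± 1.20 in Naive and 44.7% ± 1.68 in BDNF libraries (exact permutation p = 0.3). Megabases with more than 10 protein-coding genes held 9.58%, 11.3% and 11.7% of Naive peaks and 12.5%, 11.7% and 11.8% of BDNF peaks (exact permutation p = 0.2). Naive 1 was low on this measure and, with 21.5% against 16.98% to 17.9% in the other 5, high in megabases without a gene.

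No chromosome passed a test of its share of peaks. Chromosomes 10, 15 and 17 had a higher share in every BDNF than in every Naive library, 3 of 23 chromosomes, each with an exact permutation p of 0.1 and an adjusted p of 0.767. The share on chromosome 17 was 2.03% ± 0.200 in Naive and 2.37% ± 0.0849 in BDNF libraries (SD, n = 3). Among 599 bins of 5 Mb, the share of peaks was higher in every Naive library in 30 bins (5.01%) and higher in every BDNF library in 31 (5.18%), an even split.

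Replicates shared few peaks, and no more with each other than with the other group. All peaks merged into 42584 regions, of which 41915 (98.4%) held a peak in 1 library only. A total of 172 regions had peaks in 2 or more Naive and no BDNF libraries, 83 in 2 or more BDNF and no Naive libraries, and 414 in both groups. The excess of Naive regions, a ratio of 2.07, stands beside the larger number of Naive peaks. Per 1000000 possible pairs of peaks, 0.906 overlapped between Naive libraries, 0.918 between BDNF libraries and 0.960 between a Naive and a BDNF library. Single library pairs ranged from 0.762 to 1.11 within Naive, 0.727 to 1.00 within BDNF and 0.750 to 1.34 across the groups.

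**Figure D2:**
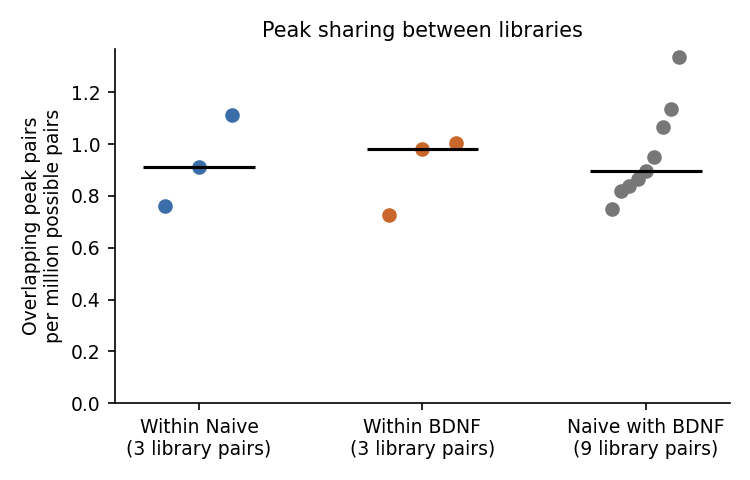
Overlapping peak pairs per 1000000 possible pairs (linear axis from 0) for the 15 pairs of the 6 libraries; points are library pairs and lines medians. Pairs within Naive (0.762 to 1.11) and within BDNF (0.727 to 1.00) lie inside or just below the range of pairs across the groups (0.750 to 1.34).

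Regions lost on differentiation, with a peak in all 3 Naive and no BDNF library, numbered 3 of 42584 (0.00704%). Regions gained, with a peak in all 3 BDNF and no Naive library, numbered 0 (0% of 42584). No region had a peak in 5 or more libraries, and 3 had one in 4.

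The first lost region lies inside NMNAT2, which encodes an enzyme of NAD synthesis that keeps axons alive, at chr1:183336684-183337117 of GRCh38. NMNAT2 is on the minus strand, and the peak summits lie 81.4 to 81.6 kb downstream of its start. Fold enrichment was 4.43, 4.66 and 3.63 in Naive libraries 1, 2 and 3, with −log10 p of 5.13, 5.84 and 3.77 and a lowest q of 0.473. In BDNF libraries 1 and 2 the nearest peaks were 139.6 and 158.2 kb away. BDNF 3, however, had a weaker peak 34 bp from the region, at 183336478 to 183336650, with a fold enrichment of 2.52 and a −log10 p of 2.34. Joining peaks within 500 bp therefore ended this call.

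The second lost region lies outside any gene, at chr7:54290281-54290565, 251.8 kb from VSTM2A, which encodes an immunoglobulin domain protein. Fold enrichment was 3.28, 3.57 and 3.46 in Naive libraries 1, 2 and 3, with −log10 p from 3.10 to 3.77 and a q of 1 in each. The nearest BDNF peaks were 34.3, 168.6 and 116.4 kb away, so no BDNF library had a peak near it. It was the one lost region left when peaks had to overlap by 50% of the shorter one, whereas NMNAT2 was the one left when each library was cut to 4536 peaks.

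At gene ends the only all-or-none gene was OR13G1, an olfactory receptor gene of chromosome 1q44. Such a peak was present in BDNF libraries 1, 2 and 3 and in no Naive library, 1 of 19974 protein-coding genes (0.00501%). The reverse pattern, a gene-end peak in every Naive and no BDNF library, was seen in 0 genes (0%). OR13G1 is on the minus strand at chr1:247670812-247679739, and its peaks lie beyond the 3′ end, with summits 10.3 to 10.9 kb from the start. BDNF 1 had a fold enrichment of 4.85 and a −log10 p of 6.52, BDNF 2 of 2.69 and 2.08, and BDNF 3 of 3.47 and 3.65. The BDNF 1 and BDNF 2 peaks share a summit at 247669417 and the BDNF 3 peak does not overlap them, so the 3 peaks form no shared region. Within 10 kb of the locus centre Naive 1 had 1 peak and the other Naive libraries 0. At a window of 1 kb, with gene starts alone, or once peaks below a −log10 p of 3 were dropped, the call was lost.

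LGR6, which encodes a receptor for R-spondins that strengthens Wnt signalling, showed a like arrangement and is named by the rule for genes below. Of its 4 BDNF peaks, 3 cluster within 965 bp at chr1:202256658-202257622, about 63 kb downstream of the start on the plus strand. Fold enrichment there was 2.60 in BDNF 1, 5.72 in BDNF 2 (−log10 p of 7.64, q of 0.0339) and 2.83 in BDNF 3, and 0 peaks lay within 10 kb in any Naive library. In this cluster the BDNF 2 and BDNF 3 peaks overlap and the BDNF 1 peak does not. The remaining peak, also in BDNF 3, lay outside it at 202260751 to 202260969, with a fold enrichment of 2.93. At equal peak numbers LGR6 held 0, 0 and 0 against 0, 1 and 0, and the separation was lost. With peaks within 500 bp joined, 3 regions counted as gained, including 1 inside LGR6 and 1 beyond the 3′ end of OR13G1.

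**Figure D3:**
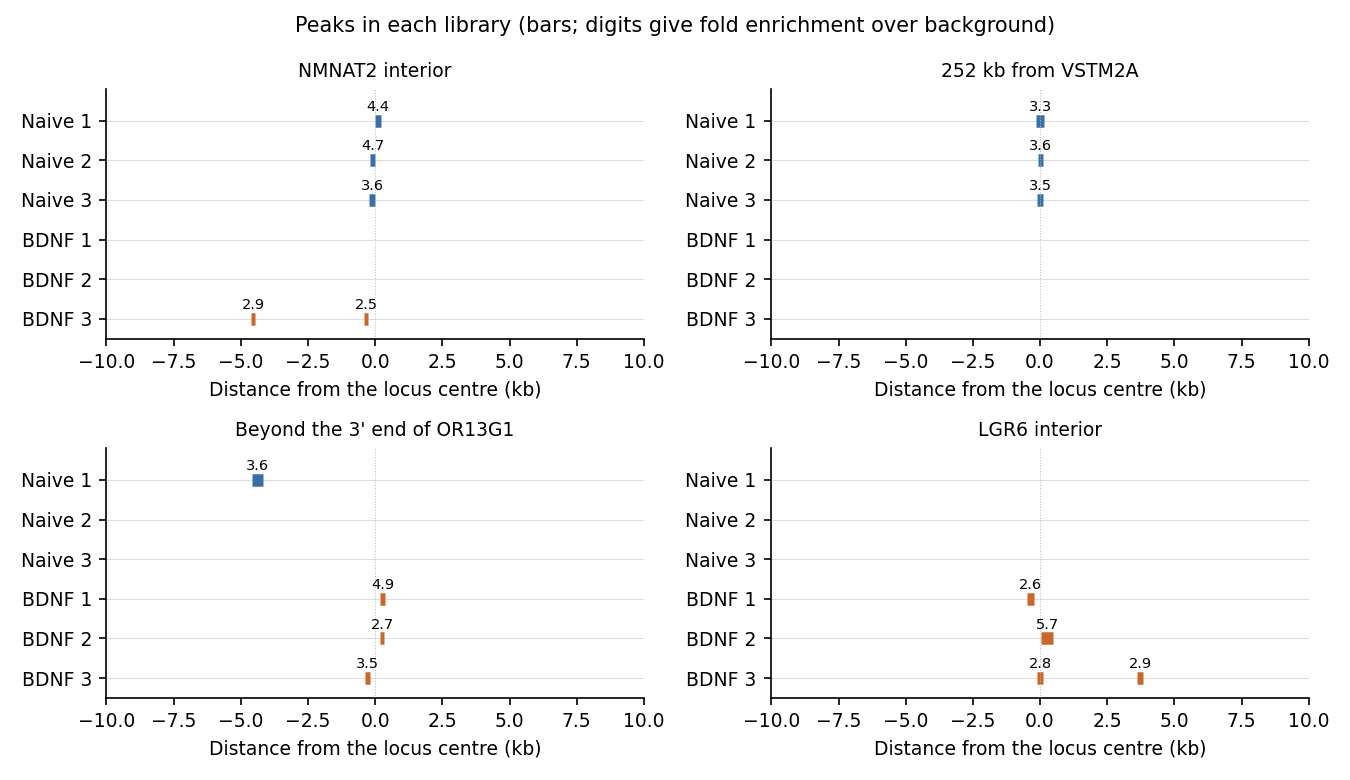
Peaks (bars, drawn to scale) in each of the 6 libraries within 10 kb of the centre of 4 loci; the horizontal axis is distance in kb and digits give fold enrichment over background. The NMNAT2 and chromosome 7 loci have peaks at the centre in the 3 Naive libraries, with the BDNF 3 peak of fold 2.52 beside NMNAT2, and the OR13G1 and LGR6 loci have them in the 3 BDNF libraries.

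The strongest regions were mostly seen once. Of 144 regions with a q of 0.05 or less in some library, 129 had a peak in 1 library only, and 95 were seen in Naive libraries alone, 42 in BDNF libraries alone and 7 in both. A q of 0.05 or less was reached in 2 libraries at only 2 of them. One is at chr11:94234456-94234832 in the long non-coding RNA gene LOC105369435. It had peaks in all 3 Naive libraries and in BDNF 1, with q of 0.00114 in Naive 3 and 0.00442 in BDNF 1 and pileups of 18.2 and 20.4, so it was not particular to a group. The other, chr22:12195462-12195696, lies outside any gene and had peaks in 2 Naive libraries, with a lowest q of 0.0130. The highest single fold, 8.14 at a q of 5.15e-08, was in Naive 3 on chromosome 9, outside any gene. The strongest BDNF peak, with a fold of 6.73 and a q of 4.88e-04, lay in FBN2, a gene of extracellular microfibrils, in BDNF 2. FBN2 and the chromosome 9 region were chosen after their values were seen.

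Promoters were rarely under a peak. Of 27195 RefSeq promoter windows of 300 bases (250 before and 50 after a gene start), a peak touched 31 in Naive and 20 in BDNF libraries, and 0 were touched in 2 or more libraries. Only 12 of the 51 belong to protein-coding genes, and 39 to long non-coding RNA genes, whereas 15812 of all 27195 windows are of protein-coding genes. The touched windows are poor in G and C, with a median of 40.7% in Naive and 41.0% in BDNF libraries. The median was 58.3% over all windows and 62.7% over those of protein-coding genes. The different mix of gene kinds was not allowed for. The half-site of retinoic acid receptors, AGGTCA on either strand, is in 16.1% of the touched Naive windows, 15% of the touched BDNF windows and 13.9% of all windows.

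The 2 sequences below are, among protein-coding genes only, the promoter stretches with the strongest peak centred on the window in each group. They are shown because they are what such an A- and T-rich promoter looks like. Windows of long non-coding RNA genes held stronger peaks, with a −log10 p of 5.84 at LINC01596 in Naive 2 and 6.81 at LINC01099 in BDNF 3. Both sequences shown run 5′ to 3′ over the 250 bases before the gene start in RefSeq GRCh38, and capitals mark the bases under the peak. OR13H1, an olfactory receptor gene, is at chrX:131543824-131544073 on the plus strand, with 146 bases under a Naive 3 peak. IPCEF1, whose protein partners a regulator of ARF GTPases, is at chr6:154356804-154357053 on the minus strand, with 82 bases under a BDNF 1 peak.
OR13H1 promoter: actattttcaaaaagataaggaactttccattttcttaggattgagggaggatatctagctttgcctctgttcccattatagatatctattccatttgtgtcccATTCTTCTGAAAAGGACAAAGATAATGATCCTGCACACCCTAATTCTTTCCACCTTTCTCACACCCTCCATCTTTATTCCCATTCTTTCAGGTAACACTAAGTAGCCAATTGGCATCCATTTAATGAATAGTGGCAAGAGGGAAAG
IPCEF1 promoter: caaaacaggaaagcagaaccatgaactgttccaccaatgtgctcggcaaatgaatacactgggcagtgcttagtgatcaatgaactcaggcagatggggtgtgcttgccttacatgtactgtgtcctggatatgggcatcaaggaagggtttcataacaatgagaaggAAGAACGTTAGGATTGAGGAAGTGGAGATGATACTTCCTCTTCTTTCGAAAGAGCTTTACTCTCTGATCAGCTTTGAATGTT
The OR13H1 peak had a fold enrichment of 4.39 and a −log10 p of 5.33, and its summit lay 84 bases before the start. The IPCEF1 peak had a fold enrichment of 3.93 and a −log10 p of 4.35, with its summit 9 bases before the start. Neither stretch holds AGGTCA, and each peak was seen in its one library only. Of 1558 miRNA hairpins, 2 (MIR500A and MIR8078) were touched by a peak, both in BDNF 1, and MIR8078 only in part.

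Counted per gene, more genes had their higher values in Naive cells, a split in the direction of the peak numbers. Of 19974 protein-coding genes, 5908 had a peak in the body or within 2 kb in some library and 155 in all 6. A peak in every Naive and no BDNF library was found in 57 of the 19974 genes, and the reverse in 13. Every Naive library held more peaks than every BDNF library in 83 genes (0.416%), and the reverse held in 15 genes (0.0751%). The split turned when each library was cut to its 4536 strongest peaks: 21 genes were then higher in every Naive and 30 in every BDNF library, of which 15 and 5 were among the 83 and 15. Scaled instead to counts per 10000 peaks, the split did not turn, at 90 and 59 genes. Each such gene has an exact permutation p of 0.1, the smallest possible, and none is a call.

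These genes are long. Their median length was 261.9 kb for the Naive-higher and 132.6 kb for the BDNF-higher genes, against 24.2 kb over all protein-coding genes, and 755.5 kb for the genes with a peak in all 6 libraries. Among the 1396 genes of 200 kb or more, 54 (3.87%) were higher in every Naive and 6 (0.43%) in every BDNF library. Of the same genes, 51.4% had a lower and 26.7% a higher mean in BDNF cells, and the shares over all genes were 15.4% and 10.1%.

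The 10 Naive-higher genes with the largest difference in mean peaks were CSMD3, DACH2, ROBO2, CALN1, DCHS2, IL1RAPL1, GPC5, BIRC6, NKAIN3 and IL1RAPL2. NRXN3 tied with the last 3 and, as the longest, was left out of the 10. CSMD3, which encodes a large membrane protein of neurons, held 18, 9 and 12 peaks in Naive and 5, 5 and 4 in BDNF libraries. DACH2, a developmental transcription cofactor gene, held 9, 8 and 6 against 3, 2 and 3. DCHS2, which encodes a large cadherin, held 5, 5 and 3 peaks in Naive and 0, 0 and 0 in BDNF libraries. These 3 genes were higher in every Naive library at equal peak numbers too, with DCHS2 at 4, 4 and 2 against 0, 0 and 0. The 13 peaks in DCHS2 had folds of 2.53 to 4.98, lay 45.0 to 246.4 kb from the gene start, and did not overlap one another, so the same gene but not the same place recurred.

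In the other 7 genes the groups met or overlapped at equal peak numbers. ROBO2, which encodes a Slit receptor that steers axons, held 8, 7 and 7 peaks in Naive and 3, 0 and 4 in BDNF libraries, and 3, 4 and 3 against 0, 0 and 3 at equal peak numbers. CALN1, a gene for a calmodulin-like protein of neurons, held 12, 5 and 5 against 2, 3 and 3. The synaptic adhesion gene IL1RAPL1 held 7, 7 and 7 against 4, 1 and 4, and its relative IL1RAPL2 9, 6 and 5 against 3, 2 and 4. GPC5, a glypican gene, held 9, 6 and 8 against 5, 3 and 3. NKAIN3, whose protein binds the sodium pump, held 6, 6 and 5 against 4, 1 and 1. BIRC6, which encodes a giant inhibitor of cell death, held 7, 1 and 3 in Naive and 0, 0 and 0 in BDNF libraries, so its mean rests largely on Naive 1.

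The 10 BDNF-higher genes by the same rule were GRIN2B, SLCO1A2, GABRA4, LGR6, OTUD7B, PIK3C3, FTO, FBXL17, OR13G1 and ERLIN1. The last 2 were taken as the shortest of 7 genes tied at a difference of 1 peak, the others being RBBP8, ENPP2, WWC2, JAZF1 and CSMD2. GRIN2B, which encodes a subunit of the NMDA glutamate receptor, held 1, 1 and 1 peaks in Naive and 3, 3 and 3 in BDNF libraries. Its 12 peaks lay 98.9 to 422.9 kb from the start with folds of 2.74 to 4.81, and none overlapped another. At equal peak numbers GRIN2B held 1, 0 and 1 against 2, 3 and 0, and the groups overlapped.

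SLCO1A2, which encodes an organic anion transporter, held 0 peaks in every Naive library and 2, 1 and 2 in BDNF libraries, spread over 5.10 to 153.4 kb from its start. GABRA4, a GABA receptor subunit gene, held 0, 0 and 0 against 2, 1 and 1, with all 4 peaks 69.2 to 76.5 kb from the start, near the 3′ end of this 74.7 kb gene. GABRA4 kept its separation at equal peak numbers, as did OTUD7B, a deubiquitinase gene with 0, 0 and 0 against 2, 1 and 1. FTO, an RNA demethylase gene, held 1, 0 and 1 against 2, 2 and 2, and it too remained separate there. PIK3C3, a lipid kinase gene of autophagy, held 0 against 1, 2 and 1, FBXL17, a ubiquitin ligase subunit gene, 0 against 2, 1 and 1, and ERLIN1, a gene of the endoplasmic reticulum membrane, 0 against 1, 1 and 1. SLCO1A2, PIK3C3, FBXL17 and ERLIN1 lost their separation at equal peak numbers, where SLCO1A2 held 0, 0 and 0 against 0, 1 and 1.

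**Figure D4:**
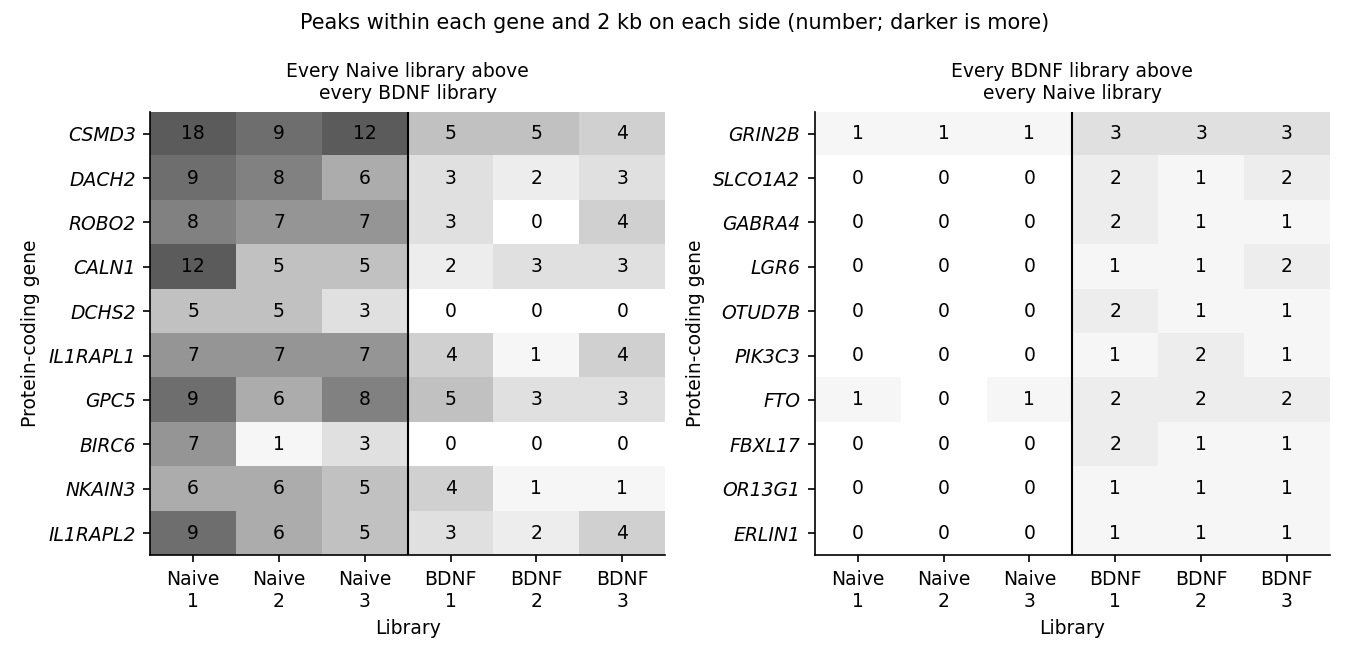
Number of peaks within each gene and 2 kb on each side in the 6 libraries, for the 10 genes with the largest difference in mean in each direction; darker cells hold more peaks. The Naive-higher genes hold up to 18 peaks in a library, the BDNF-higher genes at most 3.

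In all, 15 gene lists were counted. Some cover pathways linked to the treatment, and others the enzymes of the mark or genes related to loci named above. All were chosen with earlier results of these data known. In each case the number of members with a peak is given per library, Naive first. Over all genes the median difference in mean peaks was 0, and among genes of 200 kb or more it was −0.33.

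Genes of retinoic acid (receptors, metabolism and targets) had peaks in 4, 5 and 2 of 25 members in Naive and in 2, 1 and 2 in BDNF libraries, which meet at 2. RARB, a retinoic acid receptor gene that is itself a classical target, held 2, 1 and 5 peaks in Naive and 2, 0 and 0 in BDNF libraries. Its 10 peaks lay 65.2 to 689.8 kb from the start and did not overlap. MEIS2, a homeobox gene, held 1, 1 and 1 against 0, 0 and 0, also at 3 separate places. At equal peak numbers MEIS2 held 0, 1 and 1 against 0, 0 and 0, and the separation was lost. Of the 25 members, 4 had a lower and 1 a higher mean in BDNF cells, with 20 equal. The shares over all genes were 15.4% lower and 10.1% higher. The HOX genes, 39 short genes, had 1 peak in all, in Naive 1, and 0 in the other 5 libraries.

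Neurotrophin genes had peaks in 8, 7 and 5 of 29 members in Naive and in 7, 5 and 6 in BDNF libraries, so the groups overlapped. NTRK2, the gene of the BDNF receptor TrkB, held 0, 0 and 0 peaks in Naive and 1, 1 and 0 in BDNF libraries, with folds of 3.61 and 3.73 at 136.7 and 112.7 kb from its start. NGFR, the gene of the low-affinity neurotrophin receptor, held 0 in all 6. SORCS1, a sorting receptor gene, held 1, 1 and 1 against 0, 0 and 0. It held 0, 1 and 1 against 0, 0 and 0 at equal peak numbers, and the separation was lost. Immediate early genes, which BDNF induces within minutes, had a peak in 1, 1 and 1 of 24 members in Naive and in 1, 0 and 0 in BDNF libraries.

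Genes of axon growth and the neuronal cytoskeleton were the one list whose groups did not meet when all peaks were counted, with peaks in 6, 6 and 5 of 23 members in Naive and in 2, 2 and 3 in BDNF libraries. MAP2, a dendritic microtubule protein gene, held 1, 1 and 1 peaks against 0, 0 and 0, with folds of 3.10 to 4.21. ANK3, the gene of the scaffold protein of the axon initial segment, held 3, 2 and 3 against 1, 0 and 1. ANK2, its relative, went the other way on average, with 2, 1 and 1 against 3, 0 and 3. At equal peak numbers MAP2 held 1, 0 and 1 against 0, 0 and 0. ANK3 then held 1, 2 and 3 against 1, 0 and 1, so neither MAP2 nor ANK3 separated the groups there. Of the 23 members, 7 had a lower and 2 a higher mean in BDNF cells, against 15.4% and 10.1% over all genes. The shares were 51.4% and 26.7% among genes of 200 kb or more, to which 5 members belong. The median difference in the list was 0, as over all genes. At equal peak numbers the counts were 3, 4 and 4 against 2, 2 and 3, which meet at 3. At that setting 2 other lists, of NAD genes and of arginine methyltransferases, had groups that did not meet, the first only with NMNAT2 counted. Which list stands apart thus depends on this setting.

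Axon guidance, adhesion and synapse genes, which are long, often held peaks in both groups. Guidance genes had peaks in 20, 12 and 16 of 32 members in Naive and in 13, 9 and 18 in BDNF libraries. ROBO1, the relative of ROBO2, held 7, 3 and 5 against 3, 1 and 2. Neuronal adhesion genes had peaks in 20, 17 and 21 of 32 members and in 20, 20 and 21. CNTNAP2, a gene of axonal adhesion and 2304 kb long, held 25, 10 and 9 against 12, 7 and 10, and CADM2, a synaptic adhesion gene, 17, 4 and 3 against 1, 6 and 4, so both overlapped and rested on Naive 1. NRXN3, a presynaptic adhesion gene, held 10, 3 and 4 against 2, 2 and 2. At equal peak numbers NRXN3 held 4, 1 and 3 against 2, 2 and 2, and the groups overlapped.

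Synapse genes had peaks in 17, 16 and 14 of 33 members in Naive and in 18, 14 and 16 in BDNF libraries. DLG2, which encodes a postsynaptic scaffold, held 10, 8 and 14 against 9, 1 and 2, and UNC13C, a vesicle priming gene, 8, 4 and 4 against 5, 0 and 1. GRIN2B was the only member of the list higher in every BDNF library. NRG3, a gene of a neuregulin growth factor, was the only member higher in every Naive library, with 5, 5 and 9 against 3, 4 and 4. At equal peak numbers neither gene separated the groups, with NRG3 at 4, 4 and 2 against 3, 4 and 3. Of the 33 members, 13 had a lower and 10 a higher mean in BDNF cells, and 22 are 200 kb or more in length. Among all genes of that length, 51.4% had a lower and 26.7% a higher mean. Every Naive library was higher in 3.87% of those genes and every BDNF library in 0.43%. GABRB1, a GABA receptor subunit gene, held 3, 2 and 4 against 1, 0 and 2.

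Axon maintenance and NAD genes, the list of NMNAT2, had peaks in 8, 2 and 3 of 22 members in Naive and in 2, 1 and 3 in BDNF libraries. NMNAT2 as a whole held 1, 1 and 1 against 0, 0 and 2, since BDNF 3 had 2 weaker peaks in it. MYCBP2, whose ubiquitin ligase removes NMNAT2 protein, held 1, 3 and 3 against 1, 0 and 2. No member of the list separated the groups when all peaks were counted. At equal peak numbers NMNAT2 held 1, 1 and 1 against 0, 0 and 0. The list then had peaks in 3, 2 and 2 members against 1, 1 and 1, which do not meet. NMNAT2, already named for its lost region, is counted in each of these Naive values and in no BDNF value. Without it the groups meet, so the gap rests on that gene.

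The enzymes of the mark had few peaks. Arginine methyltransferases and their partners had peaks in 2, 0 and 0 of 17 members in Naive and in 3, 2 and 2 in BDNF libraries, which meet at 2. At equal peak numbers the counts were 1, 0 and 0 against 2, 2 and 2, and the groups did not meet. PRMT5 held 0 in all 6 libraries. The 7 BDNF peaks fell 1 each in 7 members, among them PRMT6, PRMT9 and PRMT7 in BDNF 1, so no member had a peak in 2 BDNF libraries. BAF complex genes, subunits of a chromatin remodeller, had peaks in 2, 2 and 3 of 28 members and in 2, 4 and 2.

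Genes of cell identity and division differed among themselves in how many held a peak, and their groups overlapped. Noradrenergic neuroblastoma genes had peaks in 2, 0 and 2 of 24 members in Naive and in 1, 1 and 0 in BDNF libraries, with ALK, a receptor kinase gene mutated in neuroblastoma, at 2, 0 and 2 against 0, 1 and 0. Mesenchymal neuroblastoma genes, with a median length of 76.7 kb against 24.2 kb over all genes, had them in 5, 2 and 5 of 19 members and in 3, 6 and 2. Over all 19974 genes, 2608, 1640 and 2119 had a peak in Naive and 1756, 1461 and 2022 in BDNF libraries. Cell cycle genes had them in 0, 1 and 3 of 31 members and in 1, 0 and 1. The olfactory receptor genes of chromosome 1q44, neighbours of OR13G1, had them in 6, 3 and 2 of 42 measured members and in 2, 2 and 3. OR13G1 alone separated the groups. It was already named for its gene-end peaks, so the list adds no support for it. Over all genes, 0.0751% were higher in every BDNF library.

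**Figure D5:**
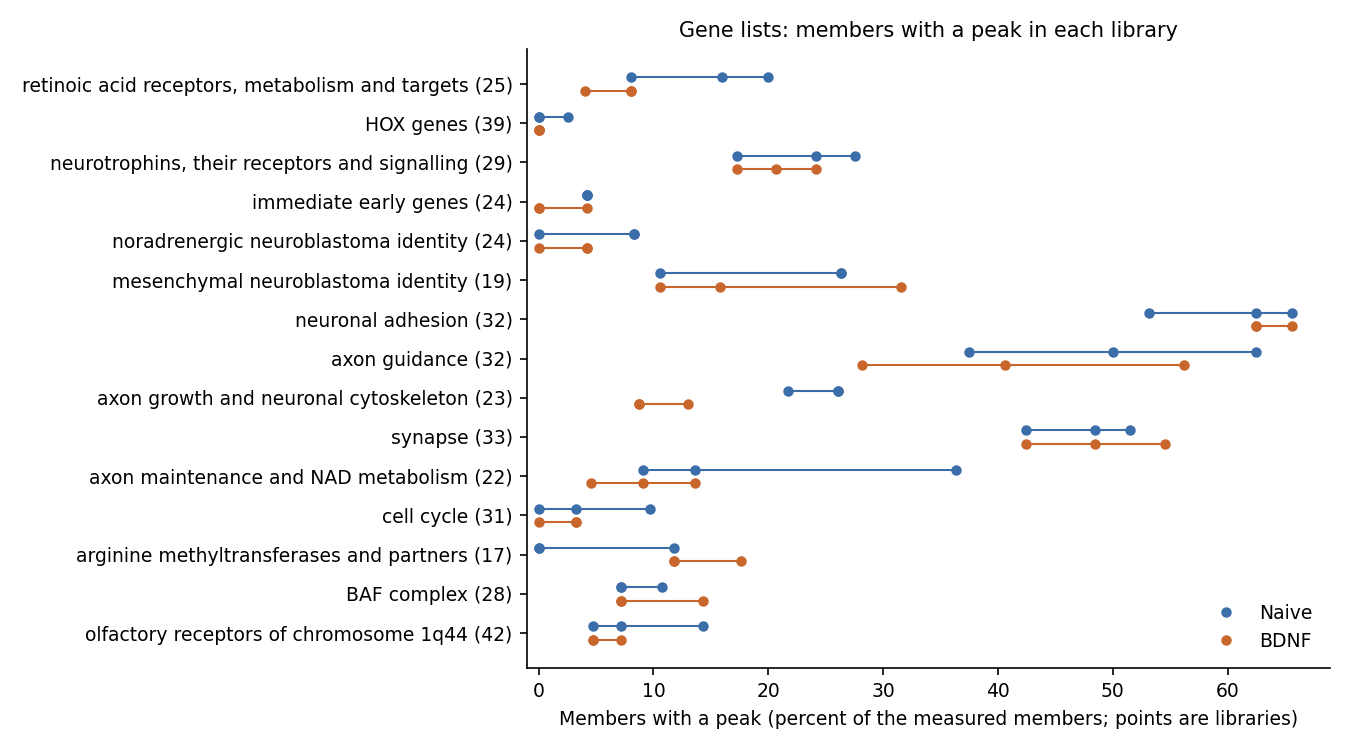
Members with a peak, in percent of the measured members (number in parentheses), for the 15 gene lists; points are the 3 libraries of each group and lines their range. With all peaks counted, the groups stand apart in axon growth and cytoskeleton genes (6, 6 and 5 against 2, 2 and 3 of 23 members) and meet or overlap in the others.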

How the data were processed

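H4R3me2s ChIP-seq peaks of 3 Naive and 3 BDNF libraries, grouped by their labels, were used; 7 other files of the series were not used here. Per the submitters' processing notes, the authors used cutadapt 1.1, Trimmomatic 0.32, Bowtie (version not given in the sources used here), GRCh38 and MACS2 2.2.7.1. The file headers give 1 Input (17074000 reads kept) as the control of every call, a p threshold of 0.01, 1 read kept per position, local background of 1000 and 10000 bp, and reads of 100 bp (92 bp in BDNF 3). The deposited values per peak are its length in bp, pileup signal, −log10 p, −log10 q and fold enrichment, a ratio over local background. The headers state that q would not be calculated, yet the deposited column holds values, used as given. Libraries kept 17164402 to 18229482 reads, per the file headers; peaks hold no read counts, so no interval for a peak was computed.

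On chromosomes 1 to 22 and X, peaks sharing at least 1 bp formed regions; unplaced contigs entered only peak number, length and q counts. Peaks were assigned to RefSeq protein-coding genes with 2 kb on each side; the annotation used here holds no exons, so exons and introns were not told apart. Promoter windows matched 15812 protein-coding genes. Library measures were compared by exact two-sided permutation tests with Benjamini-Hochberg adjustment over 5 measures (23 for chromosomes). Regions and genes whose groups do not overlap are counted with their share of all tested. The test scripts were tested on simulated data (Python 3.11.15, numpy 2.4.6, pandas 2.3.3, scipy 1.17.1). Members and lists were chosen with earlier results of these data known. Named genes were those of all-or-none regions and gene ends, the 10 per direction with the largest difference among genes whose groups do not overlap (ties taken shorter first), up to 3 members per list, and NMNAT2, OR13G1, PRMT5, NTRK2, NGFR and RARB; others (ROBO1, ANK2, GABRB1, ALK, MYCBP2 and the PRMT genes among them) were chosen after their values were seen. One lost region and some results of this rule for list members are not described here. Alternatives were other thresholds, windows and overlap rules, equal peak numbers, libraries left out, chromosomes 1, 2, 7 and 17 left out, and, added after seeing the data, gene starts only.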

Additional observations from a re-analysis of the deposited data

How the results depend on the processing

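No measure per library passed a test at any setting, where the smallest possible p was 0.1. The ratio of peak numbers stayed below 1 at every setting, and the gene body share was higher in BDNF libraries except among peaks at a q of 0.05 or less, where the difference was -2.14 percentage points (exact permutation p = 0.7). Leaving out 1 library moved the gene-end difference between -0.0237 (without Naive 1) and 0.253 points.

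Lost regions numbered 0 at a −log10 p of 5 or more, 0 at a q of 0.05 or less, 0 without chromosomes 1, 2, 7 and 17, 1 at equal peak numbers, 1 at an overlap of 50% of the shorter peak and 3 to 79 with 1 library left out; gained regions numbered 3 with peaks within 500 bp joined and 0 to 37 with 1 library left out. Gene-end peaks in every BDNF and no Naive library were found in 3 genes at a window of 5 kb, in 0 at 1 kb, at gene starts only, at a −log10 p of 3 or 5 or more, at a q of 0.05 or less and without those chromosomes (OR13G1 is on chromosome 1), and in 1 to 8 with 1 library left out. The reverse was found in 4 genes at 5 kb and in 0 to 13 with 1 library left out. Genes higher in every Naive library numbered 54 at a −log10 p of 3 or more, 4 at 5 or more, 0 at a q of 0.05 or less, 21 at equal peak numbers and 110 to 345 with 1 library left out. Genes higher in every BDNF library numbered 14 at a −log10 p of 3 or more and 1 at 5 or more. They numbered 0 at a q of 0.05 or less, 30 at equal peak numbers and 24 to 108 with 1 library left out. At a −log10 p of 3 or more, 36 of the 54 were among the 83 and 5 of the 14 among the 15. At 5 or more, 3 of the 4 were among the 83, and the 1 BDNF-higher gene was not among the 15. The counts with 1 library left out rise by construction, since fewer libraries have to agree. The cause of the other differences was not tested.

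With the replicate number as a block (replicate block, 3 same-numbered differences with their signs flipped, smallest p 0.25), the exact p was 0.25 for peak number at a ratio of 0.697, 0.25 for covered length, gene body share and peaks at a q of 0.05 or less, and 0.75 for the gene-end share. Deviations of same-numbered libraries correlated at −0.86, 0.35 and −0.33 over chromosomes and −0.066, 0.011 and −0.0079 over genes. Libraries with different numbers ranged from −0.66 to 0.82 over chromosomes, so these values cannot decide whether same-numbered libraries were paired.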
